A study of Homo sapiens with 6 samples.

Results

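The genes described here are the 3 mRNAs of the IGF2BP family (IGF2BP1, IGF2BP2 and IGF2BP3), the HMGA pair (HMGA1 and HMGA2), LIN28B and ELAVL1, 7 of the 32679 genes in the expression table. They were selected by gene name, and IGF2BP2 was chosen for its fall in these same samples, so its values are given as a description with no test. The data were short-read RNA-seq of poly(A) RNA from HEY cells, a human ovarian cancer cell line, after knockdown of the splicing factor PQBP1. The shNC group (3 samples) carried a control hairpin (genotype NC) and received no treatment, and the shPQBP1 group (3 samples) carried a hairpin against PQBP1 with Dox at 1 µg/ml, both at day 3. By the labels, the hairpin and doxycycline differed together between the groups, so their contributions cannot be told apart. Per the methods, the stable lines were made with lentivirus and selected with puromycin. Nothing states that the samples of a group came from separate cultures, so the p-values measure only the spread between these samples, which may be technical.

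IGF2BP proteins bind mRNAs in the cytoplasm, where they stabilise or localise them, and they are among the readers of N6-methyladenosine (m6A). HMGA proteins bend AT-rich DNA, and HMGA2 is a known activator of IGF2BP2 transcription in muscle and tumour cells. The let-7 microRNAs repress HMGA2, LIN28B and IGF2BP mRNAs through their 3′ untranslated regions (3′UTRs), while LIN28 proteins block the making of let-7. In many embryonic tissues and tumours these genes are active together, which gives them the name oncofetal, and ELAVL1 (HuR) is a widely expressed protein that stabilises mRNAs with AU-rich elements.

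The let-7 sequences are shown because the shared seed is what ties these mRNAs to one microRNA family. All 9 mature let-7 and miR-98 names in the RefSeq microRNA table had 1 seed (bases 2 to 8, in capitals), as in the examples that follow.
hsa-let-7a-5p: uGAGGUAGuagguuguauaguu
hsa-let-7g-5p: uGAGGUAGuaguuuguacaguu
hsa-miR-98-5p: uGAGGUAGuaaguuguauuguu
The mature microRNAs themselves were not measured by these poly(A) libraries.

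The 3′UTR of the canonical transcript of each gene (GENCODE release 44, hg38) was searched on the mRNA strand for CTACCTC, the match to the whole seed, and for TACCTCA, the match to bases 2 to 7 followed by A. CTACCTCA holds both and is called an 8mer. HMGA2 had the most matches, 7 in a 3′UTR of 2999 bases, of which 1 was an 8mer. IGF2BP1 and LIN28B had 5 each, IGF2BP2 had 3, and IGF2BP3, HMGA1 and ELAVL1 had 1 each. Among the 9941 tested genes with a 3′UTR in that annotation, 17.7% held at least 1 match and 0.6% held 3 or more, and genes with 3 or more had a median 3′UTR length of 6941 bases. The first match of each gene is shown with the bases before it, the match in capitals, read 5′ to 3′ on the mRNA. In HMGA2 the TACCTCA of that match begins at base 22 of the 3′UTR, close behind the stop codon. A match is a description of the sequence and does not show that a microRNA acts there.
HMGA2, chr12:65963299-65963320, plus strand: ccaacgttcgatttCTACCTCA
LIN28B, chr6:105078813-105078834, plus strand: cccggttgcaaagtCTACCTCA
IGF2BP1, chr17:49051062-49051083, plus strand: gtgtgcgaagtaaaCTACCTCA
IGF2BP2, chr3:185644220-185644241, minus strand: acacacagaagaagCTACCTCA
IGF2BP3, chr7:23311795-23311816, minus strand: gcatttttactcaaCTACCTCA
ELAVL1, chr19:7959856-7959877, minus strand: catcttccccagacCTACCTCA
HMGA1, chr6:34245830-34245851, plus strand: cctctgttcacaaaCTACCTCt

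**Figure D1:**
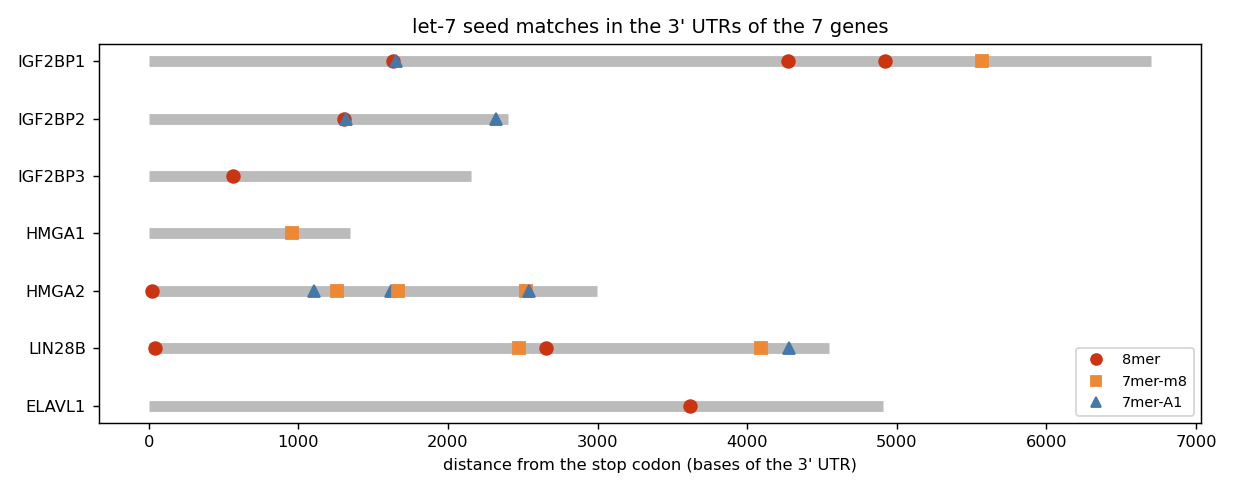
Positions of let-7 seed matches along the 3′UTRs of the 7 genes, in bases from the stop codon. Grey bars are the 3′UTRs of the canonical transcripts. The symbols give the kind of match and stand at the first base of its TACCTC. HMGA2 carries 7 matches, IGF2BP1 and LIN28B carry 5 each, and the single IGF2BP3 match is an 8mer.

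PQBP1, the targeted gene, measured 7.18, 6.67 and 6.93 FPKM in the shNC samples and 1.68, 1.72 and 1.44 FPKM in the shPQBP1 samples, lower in every sample of the knockdown. FPKM is a level corrected for transcript length and for sequencing depth, so that levels of different genes can be compared. Tests were run with limma on log2(FPKM + 0.1) for the 11413 genes with a mean of at least 1 FPKM, with Benjamini-Hochberg adjustment over all of them, and a fold change on this scale understates the change of a low gene. On that scale PQBP1 fell by 2.04 (SE 0.10, adjusted p = 0.00154). Summed over the table, FPKM came to 318484.3, 294970.3 and 304196.4 in the shNC samples. The sums were 282733.6, 287422.6 and 278285.8 in the shPQBP1 samples, each lower than every shNC sum. The number of reads behind them is unknown. Of the ovarian and mesenchymal markers, PAX8, KRT7, KRT8, KRT18, KRT19, CDH2 and VIM passed the filter, whereas MUC16 and CDH1 were at 0.06 FPKM or lower in every sample and WT1 and EPCAM stayed under 1.2 FPKM. None of these 7 differed at an adjusted p of 0.05 with limma, beside 2.91% of all genes tested. At the unadjusted threshold 1 passed, PAX8 (means 14.3 and 20.8 FPKM, adjusted p = 0.102), beside 23.6%. After the correction for GC content and length PAX8, KRT8 and KRT18 passed the adjusted threshold, all higher (adjusted p = 0.0284, 0.0439 and 0.0386), beside 8.84%. PAX8, VIM and KRT19 were higher, and WT1 lower (means 0.673 and 0.367 FPKM), in every shPQBP1 sample. Of all genes tested, 34.4% had groups that did not overlap. The 5 markers of blood, endothelial and liver cells in the table were under 0.3 FPKM in every sample, with PTPRC at 0 in all and PECAM1 lower in every shPQBP1 sample (means 0.24 and 0.0367 FPKM). The part of these differences in the results below was not tested. The log2 differences between samples followed the GC content of the transcripts, within groups and between them. The Spearman correlation with GC content across 11385 genes, which are not independent replicates, was 0.613, -0.518 and -0.44 for the 3 shNC samples, each against the others of its group, and -0.325, 0.403 and -0.113 for the 3 shPQBP1 samples. For the difference between the groups it was -0.459. The first shNC sample had the strongest of these trends.

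HEY cells expressed 5 of the 7 genes above 1 FPKM. In both groups the order of the FPKM levels was HMGA1, IGF2BP2, ELAVL1, HMGA2, IGF2BP3, IGF2BP1 and LIN28B. HMGA1 was the highest, at a mean of 253 FPKM ± 23.8 (SD, n = 3) in the shNC group, 4.67 times the IGF2BP2 level. In the shNC group the only neighbours in this order whose samples overlapped were HMGA2 and IGF2BP3, where the lowest HMGA2 value was 8.64 FPKM and the highest IGF2BP3 value was 8.66 FPKM. In the shPQBP1 group no neighbours overlapped, and ELAVL1 and HMGA2 lay closest, at a ratio of 1.18 of their means.

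**Figure D2:**
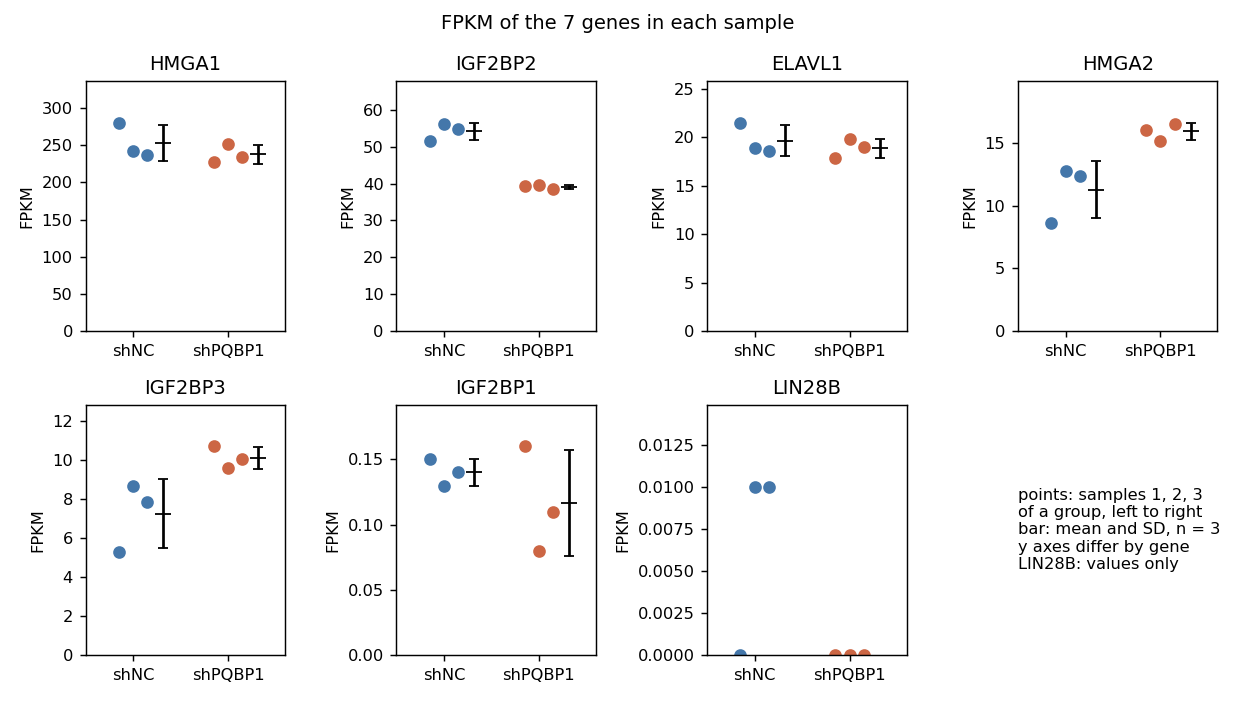
FPKM of each of the 7 genes in the 3 shNC samples (blue) and the 3 shPQBP1 samples (orange), 1 panel per gene on a linear axis from 0, with the mean and SD (n = 3) in black except for LIN28B, which is listed at 0 in 4 samples. IGF2BP2 lies lower in every shPQBP1 sample, HMGA2 and IGF2BP3 lie higher in every shPQBP1 sample, and the groups overlap for HMGA1, ELAVL1 and IGF2BP1.

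The label of an oncofetal HMGA and LIN28 axis went against the data in its LIN28 arm. LIN28B was listed at 0, 0.01 and 0.01 FPKM in the shNC samples and at 0 in all 3 shPQBP1 samples. Its paralogue LIN28A was listed at 0.01 FPKM or lower throughout. IGF2BP1, a family member largely confined to embryonic tissue, measured 0.15, 0.13 and 0.14 FPKM in the shNC samples and 0.16, 0.08 and 0.11 FPKM in the shPQBP1 samples, and the groups overlapped. Neither LIN28B nor IGF2BP1 passed the filter of 1 FPKM. Of 15 other oncofetal genes in the table, among them AFP, GPC3, SALL4, IGF2, H19 and the pluripotency factors SOX2, POU5F1 and NANOG, 13 were under 1 FPKM in every sample. The exception that could be tested was TPBG, the trophoblast glycoprotein 5T4, at a mean of 4.1 FPKM in the shNC group and 3.62 FPKM in the shPQBP1 group (adjusted p = 0.251 with limma). The genes are therefore described below as the IGF2BP family, the HMGA pair and ELAVL1.

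IGF2BP2 was the leading family member in both groups. Its gene lies on the minus strand of chromosome 3 (185643130 to 185825042, hg38), and the canonical transcript has 16 exons. IGF2BP2 measured 51.56, 56.0 and 54.89 FPKM in the shNC samples. In the shPQBP1 samples it measured 39.41, 39.54 and 38.55 FPKM. Every shPQBP1 sample was lower than every shNC sample, and the shPQBP1 samples lay within 1 FPKM of each other. The means were 54.1 FPKM ± 2.31 (SD, n = 3) and 39.2 FPKM ± 0.538 (SD, n = 3), a ratio of 0.723 and a log2 difference of -0.47 (SE 0.07). In bulk samples, fewer cells with the mRNA and less of it per cell cannot be told apart. IGF2BP2 deviated little in the first shNC sample, by -0.10 on the log2 scale from the other shNC samples, and its transcript has a GC content of 48.9%.

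IGF2BP3, whose gene lies on the minus strand of chromosome 7 (23310209 to 23470491), was the second member of the family in these cells. It measured 5.27, 8.66 and 7.85 FPKM in the shNC samples. The shPQBP1 samples measured 10.71, 9.62 and 10.04 FPKM. Every shPQBP1 sample was higher than every shNC sample, and the lowest value of all was in the first shNC sample. The log2 difference was 0.50 (SE 0.19, unadjusted p = 0.0360, adjusted p = 0.182 with limma), which did not pass the threshold. Without the first shNC sample the log2 difference was 0.29 (adjusted p = 0.119), and after correction for GC content and transcript length it was 0.28 (adjusted p = 0.111). Over 15 alternatives it ranged from 0.28 to 0.64, with adjusted p from 0.111 to 0.391. The IGF2BP3 transcript has a GC content of 40.5%, and in the first shNC sample it lay 0.64 below the other shNC samples on the log2 scale. The part of the GC trends in the difference was not tested beyond these values.

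The makeup of the family differed between the groups. The summed FPKM of the 3 genes was 56.98, 64.79 and 62.88 in the shNC samples and 50.28, 49.24 and 48.7 in the shPQBP1 samples. IGF2BP3 made up 9.25%, 13.4% and 12.5% of that sum in the shNC samples and 21.3%, 19.5% and 20.6% in the shPQBP1 samples. The groups did not overlap in either measure, the sum being lower and the IGF2BP3 share higher in every shPQBP1 sample. Both measures hold IGF2BP2, which was chosen on these samples, and so they were not tested.

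**Figure D3:**
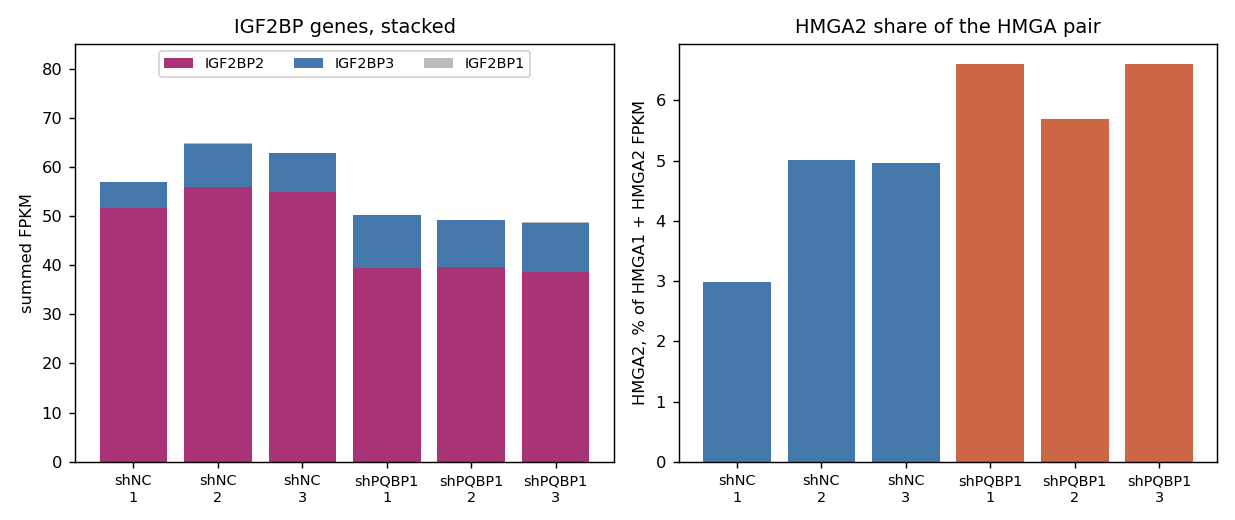
Left, summed FPKM of IGF2BP2, IGF2BP3 and IGF2BP1 in each sample as stacked bars from 0 (IGF2BP1 is too low to be seen). Right, HMGA2 as a percentage of the summed FPKM of HMGA1 and HMGA2 in each sample. The stacks stand at 56.98 to 64.79 FPKM in the shNC samples and at 48.7 to 50.28 FPKM in the shPQBP1 samples, and the HMGA2 share is lowest, 2.99%, in the first shNC sample.

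HMGA2, the embryonic member of the HMGA pair, lies on the plus strand of chromosome 12 (65824460 to 65966291). It measured 8.64, 12.76 and 12.37 FPKM in the shNC samples. The shPQBP1 samples measured 16.06, 15.18 and 16.53 FPKM. Every shPQBP1 sample was higher than every shNC sample, and the first shNC sample was again the lowest. The log2 difference was 0.52 (SE 0.16, unadjusted p = 0.0169, adjusted p = 0.133 with limma) and did not pass the threshold. It was 0.34 without the first shNC sample (adjusted p = 0.0592) and 0.40 after the GC and length correction (adjusted p = 0.0808). Over 16 alternatives it ranged from 0.34 to 0.63, with adjusted p from 0.0592 to 0.323. HMGA2 has a transcript GC content of 43.5% and lay 0.53 below the other shNC samples in the first one, on the log2 scale, and the part of this in the difference was not tested beyond these values.

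HMGA1, the family member kept on in proliferating adult and tumour cells, lies on the plus strand of chromosome 6 (34236873 to 34246231). It measured 280.01, 241.47 and 236.61 FPKM in the shNC samples. The shPQBP1 samples measured 227.02, 251.59 and 233.78 FPKM, and the groups overlapped. The log2 difference was -0.09 (SE 0.09, adjusted p = 0.554 with limma), and its direction flipped when each sample was scaled to the same FPKM sum (0.03), with quantile normalization (0.06) and after the GC and length correction (0.09), so no direction is given. Scaling to the same sum moved the median of all genes by 0.11, and relative to that median HMGA1 stood at -0.11 with that scaling and -0.11 without it. Its transcript, with a GC content of 61.6%, lay 0.23 above the other shNC samples in the first one.

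HMGA1 far outweighed HMGA2 in every sample. Together they came to 288.6, 254.2 and 249.0 FPKM in the shNC samples and 243.1, 266.8 and 250.3 FPKM in the shPQBP1 samples, an overlap (exact permutation test over samples, two-sided, p = 0.6). HMGA2 made up 2.99%, 5.02% and 4.97% of the pair in the shNC samples. In the shPQBP1 samples it made up 6.61%, 5.69% and 6.60%. The share was higher in every shPQBP1 sample (exact permutation test, two-sided, p = 0.1), and 0.1 is the smallest p that 3 samples against 3 can give.

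ELAVL1, on the minus strand of chromosome 19 (7958573 to 8005659), measured 21.5, 18.9 and 18.55 FPKM in the shNC samples. The shPQBP1 samples measured 17.83, 19.78 and 18.97 FPKM, and the groups overlapped. The log2 difference was -0.06 (SE 0.09, adjusted p = 0.707 with limma), and it turned to 0.01 without the first shNC sample. Scaling to the same FPKM sum gave 0.06, but relative to the median of all genes ELAVL1 stood at -0.08 both with that scaling and without it. The neuronal paralogues ELAVL2, ELAVL3 and ELAVL4 were at 0.05 FPKM or lower in every sample.

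Of the 4 tested genes other than IGF2BP2, which is left out of these counts because it was chosen for its fall, none passed an adjusted p of 0.05 with limma, beside 2.91% of all genes tested (332 of 11413, with 197 higher and 135 lower in the shPQBP1 group). At an unadjusted p under 0.05 the count was 2 of 4, HMGA2 and IGF2BP3, beside 23.6%. The groups did not overlap for the same 2 of 4, beside 34.4%. After the GC and length correction none passed the adjusted threshold, beside 8.84% of all genes, and the same 2 passed the unadjusted one, beside 27.8%. Relative to the median of all genes, IGF2BP2 stood between -0.51 and -0.43, HMGA2 between 0.33 and 0.60 and IGF2BP3 between 0.28 and 0.63 over all settings tried.

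**Figure D4:**
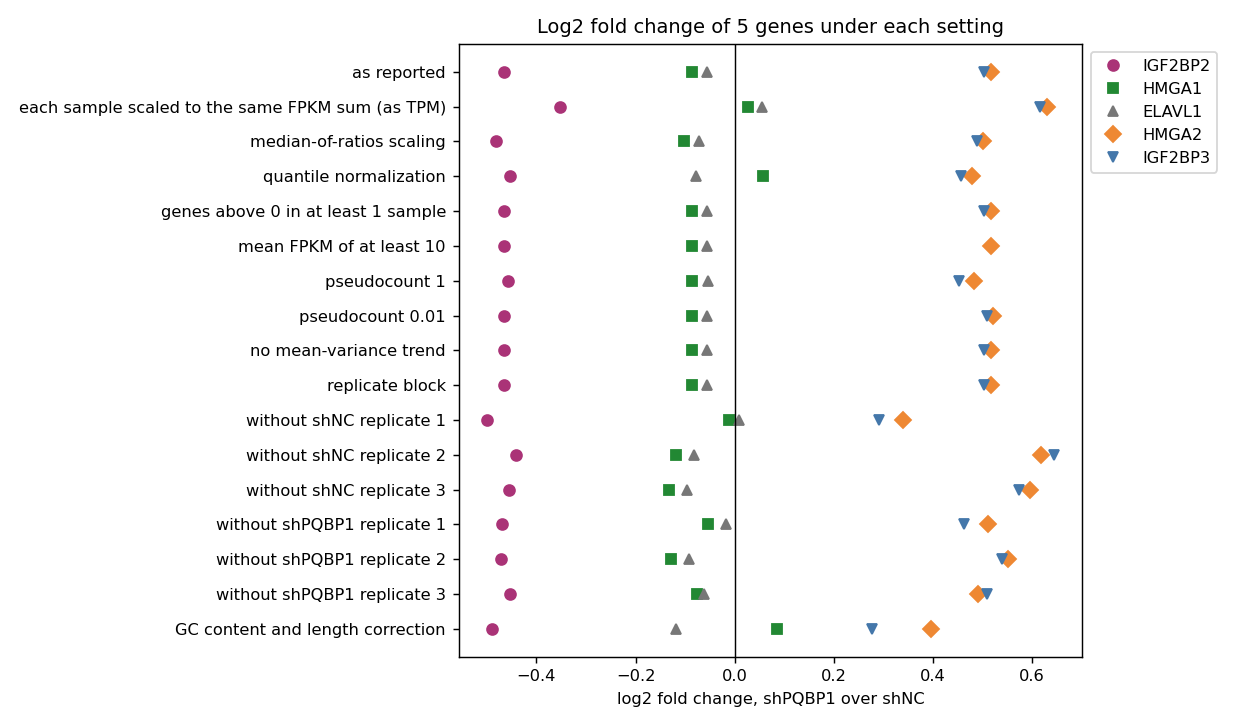
Log2 fold change (shPQBP1 over shNC, log2(FPKM + 0.1)) of the 5 tested genes as reported and under each alternative setting, 1 row per setting. IGF2BP2 stays below 0 and HMGA2 and IGF2BP3 stay above 0 in every row, both falling to their lowest values without the first shNC sample or after the GC correction, while HMGA1 and ELAVL1 lie on both sides of 0.

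Reads of neighbouring or copied genes could enter these values, since the strand of the library is not stated. RPSAP52, a transcribed pseudogene on the strand opposite HMGA2, measured 1.32, 2.02 and 1.45 FPKM in the shNC samples and 2.49, 1.72 and 2.06 FPKM in the shPQBP1 samples (adjusted p = 0.309 with limma). HMGA2-AS1 stayed between 0.13 and 0.56 FPKM, and IGF2BP2-AS1 at 0.05 FPKM or lower. MALSU1, which overlaps IGF2BP3 on the opposite strand, measured between 3.58 and 4.36 FPKM. Genes that overlap on the same strand could share reads as well. Among them, ENSG00000277945 in HMGA2 measured 0.44 to 1.43 FPKM and MIR6835 in HMGA1 3.24 to 6.48 FPKM. The pseudogene ENSG00000251550 in IGF2BP1 measured 0 to 0.7 FPKM, beside 0.08 to 0.16 FPKM for IGF2BP1 itself. HMGA1 has processed pseudogenes that resemble its mRNA, of which HMGA1P8 was at 2.2 to 3.32 FPKM and HMGA1P3 at 1.99 to 3.47 FPKM, small beside the lowest HMGA1 value of 227.02 FPKM. The division of reads between HMGA1 and these copies is uncertain.

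The 5 tested genes whose course over the 6 samples was most like that of IGF2BP2 were MSL3, the lncRNA AL583856 (ENSG00000232389), ULK1, EZH1 and IKBKB. Likeness was the root mean square difference of log2(FPKM + 0.1), each gene centred on its own mean, over 6 samples and 11412 genes. It was 0.024 for MSL3 and between 0.042 and 0.047 for the other 4. MSL3, a chromatin reader of the MSL complex, measured 2.72, 2.88 and 2.91 FPKM in the shNC samples and 2.05, 2.12 and 2.04 FPKM in the shPQBP1 samples, a ratio of means of 0.73. These genes were found by their likeness, and no test is given.

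The genes around these mRNAs were described by lists of let-7 biology, IGF signalling, IGF2BP and ELAVL1 cargo and partners, m6A and HMGA biology. The lists were written with earlier results of these data known, so their counts beside the background are a description. Together the lists held 132 tested genes other than the 7, of which 6 passed an adjusted p of 0.05 (4.55%, beside 2.91% of all genes) and 26 an unadjusted p of 0.05 (19.7%, beside 23.6%). After the GC and length correction the counts were 9 (6.82%, beside 8.84% of all genes) and 41 (31.1%, beside 27.8%). Before the correction the lists lay above the background at the adjusted threshold and below it at the unadjusted one. After it both were the other way round, so no position is given. The 6 past the adjusted threshold before the correction were RAN and CDC34, which fell, and IL6, CXCL8, ZFP36L1 and ZFP36L2, which rose. These calls changed when a single sample was left out. The count over all genes did so as well, from 332 to between 30 and 464. Without the second or the third shNC sample, or the first or the third shPQBP1 sample, none of the 132 passed with limma (30, 24, 13 and 18 passed the unadjusted threshold), without the second shPQBP1 sample 1 passed, and without the first shNC sample 8 passed. The median log2 difference of all genes tested was 0.02, and -0.02 after the GC and length correction. The medians of the lists below are to be read beside these values. Their counts are to be read beside 2.91% of all genes at the adjusted threshold and 23.6% at the unadjusted one. After the correction these shares were 8.84% and 27.8%.

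Of the 16 tested genes that make, export or degrade let-7 precursors, 1 fell and none rose. The median was -0.07, and -0.13 after the GC and length correction. RAN, the GTPase that drives nuclear export of precursor microRNAs and much other transport, measured 104.92, 130.02 and 109.06 FPKM in the shNC samples. It measured 73.4, 60.61 and 52.38 FPKM in the shPQBP1 samples, a log2 difference of -0.89 (SE 0.15, adjusted p = 0.0349 with limma), and stayed past the threshold in 8 of 16 alternatives (adjusted p from 0.0112 to 0.195). After the GC and length correction RAN and the let-7 effector AGO2 (adjusted p = 0.0443, against 0.218 before) passed, both lower. At the unadjusted threshold 3 of the list passed with limma (beside 23.6% of all genes), RAN, TRIM25 and KHSRP, all lower in every shPQBP1 sample. The RNases DROSHA and DICER1, the uridyltransferase TUT4 and the nuclease DIS3L2 had adjusted p between 0.627 and 0.984. TUT7, the paralogue of TUT4, was higher in every shPQBP1 sample (log2 difference 0.66, SE 0.32, adjusted p = 0.262 with limma) and did not pass. By position in GENCODE release 44, 9 genes of the table span a let-7 or miR-98 hairpin on the same strand, of which 6 could be tested (MIR100HG, WDR82, HUWE1, SPACA6, ENSG00000269929 and ENSG00000275180). None passed with limma at either threshold, and their adjusted p lay between 0.282 and 0.995. MIR100HG measured 0.55, 0.35 and 1.03 FPKM in the shNC samples and 2.18, 0.58 and 2.01 FPKM in the shPQBP1 samples, an overlap.

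Of 19 tested let-7 targets, 1 rose, 1 fell and 17 did not pass, with a median of 0.19 that was -0.08 after the GC and length correction. IL6, an inflammatory cytokine, measured 6.18, 5.71 and 6.41 FPKM in the shNC samples and 9.69, 10.31 and 9.77 FPKM in the shPQBP1 samples (log2 difference 0.69, SE 0.08, adjusted p = 0.0181 with limma). CDC34, a ubiquitin-conjugating enzyme of the cell cycle, measured 8.4, 8.01 and 8.56 FPKM in the shNC samples and 5.09, 4.3 and 5.46 FPKM in the shPQBP1 samples (log2 difference -0.74, SE 0.11, adjusted p = 0.0268). Neither pair of groups overlapped. IL6 stayed past the threshold in 9 of 15 alternatives (adjusted p from 0.00767 to 0.185) and CDC34 in 7 of 15 (from 0.0229 to 0.174). Over the whole table, the 1762 tested genes with at least 1 let-7 match in the 3′UTR had a median log2 difference of 0.10, and the 8179 without one had 0.01. After the GC and length correction the medians were -0.04 and -0.02, and the share called before correction was 2.84% with a match and 2.91% without.

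Of the 18 tested mRNAs described as IGF2BP cargo, none passed the adjusted threshold with limma and 3 passed the unadjusted one. The median was 0.12, and -0.08 after the GC and length correction. CCN2 (connective tissue growth factor) measured 132.74, 117.14 and 114.61 FPKM in the shNC samples and 149.61, 166.01 and 150.95 FPKM in the shPQBP1 samples (adjusted p = 0.0818), and passed in 4 of 16 alternatives (adjusted p from 0.0122 to 0.273). SRF, a transcription factor of cytoskeletal genes, went from a mean of 8.04 FPKM to 6.38 FPKM (adjusted p = 0.146), and the surface receptor CD44 from 33.7 FPKM to 26.6 FPKM (adjusted p = 0.203). MYC, also on the lists of let-7 and ELAVL1 targets, was high in the first sample of both groups. It measured 32.12, 1.31 and 1.46 FPKM in the shNC samples and 13.95, 1.81 and 1.28 FPKM in the shPQBP1 samples. Its groups overlapped (log2 difference -0.31, SE 1.45, adjusted p = 0.907 with limma). The part of this in results that turn on the first shNC sample was not tested. IGF2, the mRNA after which the family is named, was at 0 to 0.55 FPKM and was not tested. Among 10 tested genes of the IGF axis none passed the adjusted threshold with limma and 2 passed the unadjusted one. IGFBP6, a binding protein that prefers IGF2, measured 26.82, 18.83 and 20.09 FPKM in the shNC samples and 31.73, 37.77 and 38.51 FPKM in the shPQBP1 samples (adjusted p = 0.0659, passing in 3 of 16 alternatives, from 0.00708 to 0.259). The docking protein IRS1 went from a mean of 2.41 FPKM to 3.19 FPKM (adjusted p = 0.143).

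Proteins found with IGF2BPs in mRNA particles gave 14 tested entries for 13 genes, since MATR3 is listed under a pair of identifiers. None passed the adjusted threshold with limma, and 5 passed the unadjusted one, 1 higher and 4 lower, beside 23.6% of all genes. YBX1, a cold-shock protein of mRNA particles, went from a mean of 470.0 FPKM to 398 FPKM (adjusted p = 0.141) and the poly(A)-binding protein PABPC1 from 340.0 FPKM to 282 FPKM (adjusted p = 0.143). The stress granule protein G3BP1 went from 30.2 FPKM to 35.8 FPKM (adjusted p = 0.147), and its log2 difference turned from 0.25 to -0.11 after the GC and length correction. Of the 2 MATR3 entries, ENSG00000015479 measured 2.62, 8.87 and 19.02 FPKM in the shNC samples and 20.75, 22.64 and 21.11 FPKM in the shPQBP1 samples. ENSG00000280987 measured 30.55, 40.5 and 14.55 FPKM in the shNC samples and 25.28, 0.18 and 21.91 FPKM in the shPQBP1 samples, and the division of reads between them is uncertain. Of 19 tested writers, erasers and other readers of m6A, none passed with limma at either threshold on the values as deposited, and the smallest adjusted p was that of the eraser ALKBH5 (0.266). After the GC and length correction 1 passed, the nuclear reader YTHDC1, with a log2 difference of -0.29 (adjusted p = 0.346) before and -0.54 (adjusted p = 0.0208) after. It measured 10.98, 15.73 and 16.51 FPKM in the shNC samples and 11.39, 10.4 and 13.07 FPKM in the shPQBP1 samples, an overlap, and was named after its values were seen.

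Among 12 tested proteins that bind AU-rich elements beside ELAVL1, 2 rose, none fell and 10 did not pass. The median was 0.09, and -0.002 after the GC and length correction. Past the unadjusted threshold were 6, beside 23.6% of all genes. Both that rose belong to the ZFP36 family, which promotes decay of such mRNAs, while ZFP36 itself went from a mean of 3.01 FPKM to 3.99 FPKM with overlapping groups and did not pass (adjusted p = 0.465). ZFP36L1 measured 25.19, 28.45 and 27.45 FPKM in the shNC samples and 38.52, 38.41 and 39.38 FPKM in the shPQBP1 samples (log2 difference 0.52, SE 0.07, adjusted p = 0.0250 with limma). ZFP36L2 measured 6.23, 6.46 and 6.56 FPKM in the shNC samples and 9.02, 8.95 and 8.74 FPKM in the shPQBP1 samples (log2 difference 0.47, SE 0.07, adjusted p = 0.0306). Every shPQBP1 sample was higher than every shNC sample for both, and they stayed past the threshold in 10 of 16 and 8 of 15 alternatives (adjusted p from 0.0149 to 0.205 and from 0.0190 to 0.231).

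Of 18 tested mRNAs described as ELAVL1 targets, 2 rose, none fell and 16 did not pass. The median was 0.10, and -0.03 after the GC and length correction. At the unadjusted threshold 5 passed, 4 higher and 1 lower, beside 23.6% of all genes. The lower one was CDKN1A, at 101.15, 87.08 and 87.01 FPKM in the shNC samples and 18.76, 79.36 and 16.95 FPKM in the shPQBP1 samples. Its log2 difference was -1.64 (SE 0.58, adjusted p = 0.166 with limma), and its second shPQBP1 sample stood apart. The genes that rose are given next. One that rose was IL6, given above. The other was CXCL8, the neutrophil chemokine interleukin 8, at 116.69, 117.64 and 123.96 FPKM in the shNC samples and 165.33, 171.54 and 164.08 FPKM in the shPQBP1 samples (log2 difference 0.48, SE 0.06, adjusted p = 0.0189 with limma). Its groups did not overlap, but after the GC and length correction its log2 difference was 0.17 (adjusted p = 0.595), and it stayed past the threshold in 9 of 16 alternatives (from 0.0102 to 0.595). After that correction 2 of the list passed, IL6 and the AP-1 subunit JUN (adjusted p = 0.00998, against 0.0557 before), both higher. AGO2, TRIM25, KHSRP, TUT7, MYC, CDKN1A and JUN were named after their values were seen. Of 12 tested partners and targets of HMGA proteins other than IGF2BP2, none passed with limma at either threshold, and their median was 0.05.

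**Figure D5:**
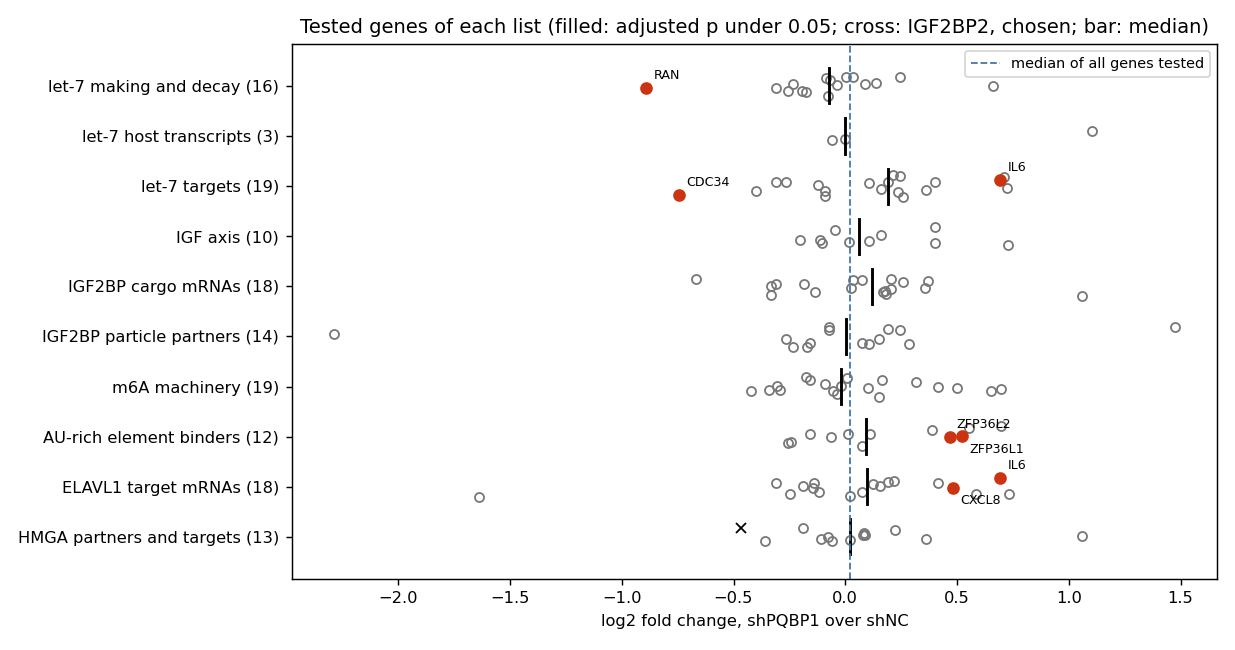
Log2 fold change (shPQBP1 over shNC) of each tested gene in 10 lists made by gene symbol, 1 row per list with the number of tested entries in brackets. Filled points passed an adjusted p of 0.05 and are named, the cross is IGF2BP2, black bars are list medians and the dashed line is the median of all genes tested (0.02). RAN and CDC34 lie at -0.89 and -0.74, and IL6, ZFP36L1, CXCL8 and ZFP36L2 between 0.47 and 0.69.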

How the data were processed

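The deposited table gave FPKM per gene and sample, rounded by the authors to 2 decimals. Reads of poly(A) libraries (paired-end, Illumina) were mapped by the authors to hg38 with HISAT2 (version 2.2.0), sorted with SAMtools (version 1.9), assembled with StringTie (version 1.3.0) and compared with edgeR. The annotation release, the library strand and the FPKM settings were not given in the sources used here. The authors' fold change, p-value, q-value and significance columns were not used. No steps of whole reads were found in low values, so counts could not be recovered, depth is unknown, and no count test was run.

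The FPKM values, unscaled, were tested as log2(FPKM + 0.1) for the 11413 of 32679 genes with a mean of at least 1 over the 6 samples, with limma (version 3.58.1, R version 4.3.3), a mean-variance trend and Benjamini-Hochberg adjustment, two-sided, at 0.05. Sums and shares were compared with exact permutation tests (scipy version 1.17.1, Python version 3.11.15). The alternatives were 3 other scalings, filters at above 0 and at 10 FPKM, pseudocounts of 1 and 0.01, no trend, a replicate block, leaving out each sample, and removal of each sample's trend on GC content and transcript length (splines with 5 degrees of freedom, canonical transcripts of GENCODE release 44, 11385 genes). The 3′UTRs and sites came from GENCODE release 44 and hg38, and microRNAs from RefSeq. The limma fit was tested on simulated data.

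The members and lists were chosen with earlier results of these data known. From each list, genes past the adjusted threshold were named, otherwise the 3 with the smallest p, and other members only to describe a list. Entries found to carry no let-7 hairpin were dropped from the list of hairpin transcripts after values had been seen. The genes compared with IGF2BP2 were the 5 most like it.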

Additional observations from a re-analysis of the deposited data

How the results depend on the processing

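IGF2BP2 stayed lower, and HMGA2 and IGF2BP3 higher, in every alternative that could be fitted. IGF2BP3 was under the filter of 10 FPKM. With each sample scaled to the same FPKM sum, the IGF2BP2 log2 difference was -0.35 and the IGF2BP sum differed by -7.96 FPKM, against -12.1 FPKM as reported. Under that scaling HMGA1 turned to 0.026, ELAVL1 to 0.055, WDR82 to 0.052, HMGA1P3 to 0.012 and the HMGA sum from -10.6 to 9.88 FPKM. HMGA1 was 0.057 with quantile normalization and 0.086 after the GC and length correction, where HMGA1P3 was 0.096, G3BP1 -0.11 and HUWE1 -0.127. HUWE1, at 0.001 as reported, was -0.015 with median-of-ratios scaling and -0.044 with quantile normalization. With a sample left out, HUWE1 ranged from -0.028 to 0.027, HMGA1P3 from -0.266 to 0.087, ELAVL1 from -0.097 to 0.009 and the HMGA sum from -18.1 to 1.78 FPKM, ELAVL1 and the sum turning without the first shNC sample. These causes were not tested.

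The count of genes past the adjusted threshold, 332 as reported, was 589 with equal sums, 190 for genes above 0, 211 at 10 FPKM, 1006 after the GC and length correction, and 30 (without the third shPQBP1 sample) to 464 (without the first shNC sample) when a sample was left out. At the unadjusted threshold, 2689 became 4156 for genes above 0, 956 at 10 FPKM, and 1780 to 2940 with a sample left out. The 6 list genes became 3 for genes above 0, 9 after the GC and length correction, and 0 to 8 with a sample left out. Across the tested genes, deviations from the group mean in samples of the same number were correlated at -0.186, -0.138 and -0.0114. After the GC and length correction these were -0.121, -0.0643 and -0.0267. Such values over all genes do not settle whether the numbers pair the samples. MYC, for example, was highest in the first sample of both groups. With the replicate number as a block 0 genes and 0 list genes passed with limma, with 1840 at the unadjusted threshold.

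Precision is set by the spread of 3 samples a group, since depth is unknown.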
